A study of Mus musculus with 6 samples.

Results

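The RNA of 10 osteoclast effector genes was examined in 6 primary osteosarcomas of *Nf2*-mutant mice. The genes were taken as a list of osteoclast fusion, acid secretion and bone resorption genes and were matched by symbol to the Ensembl identifiers of the deposited counts, where all 10 were found among 39179 genes. The tumors fall into 2 groups of 3, the *Cd44*+/+; *Nf2*Δ2/+ tumors No244, No316 and No368 and the *Cd44*-/-; *Nf2*Δ2/+ tumors No203, No279 and No364. The mice of both groups thus carried the *Nf2* mutation on 1 allele, on a mixed background of C57BL/6, 129/Sv and FVB. Cells that the study grew from *Cd44*+/+ tumors of such mice were negative for *Nf2*. CD44, a receptor for hyaluronic acid, is missing in the second group. The labels give no age or treatment, and each title names 1 mouse. The protocol in the labels speaks of RNA from cell lines, whereas the titles and the study's methods name tumor tissue.

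Osteoclasts are the cells that dissolve bone. They form when cells of the monocyte and macrophage lineage, which carry the M-CSF receptor CSF1R and the receptor RANK, meet M-CSF and RANK ligand, switch on the transcription factor NFATc1 and fuse into large cells with many nuclei. A mature osteoclast seals off a patch of bone, pumps in acid through a proton ATPase paired with a chloride transporter, and secretes cathepsin K and tartrate-resistant acid phosphatase. Osteoclasts are a known companion of bone tumors, where they remodel the matrix that tumor cells lay down.

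Total counts lay between 18076388 and 26954142 per tumor. Levels are given as CPM, counts per 1000000 counts of the library after scaling by the TMM factors of edgeR, and the 3 counts taken as the lowest detectable level were from 0.111 to 0.166 CPM before that scaling. The libraries No316 and No368 agreed within binomial sampling noise for 87.2% of 16671 genes, against 15.7% to 24.0% of genes in the other 14 pairs of libraries, and for 10 of the 10 osteoclast effector genes. This pair entered each mean ± SD as a single sample, so that n = 2 for *Cd44*+/+ and n = 3 for *Cd44*-/-. *Cd44* itself was at 137, 243.6 and 240.3 CPM in tumors No244, No316 and No368, against 19.2, 15.7 and 61.8 CPM in No203, No279 and No364, lower in every *Cd44*-/- tumor.

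The tumors differed in what other tissue markers they held. The 10 hepatocyte markers summed to 126819 CPM in No364 and to between 43.4 and 153 CPM in the other tumors. The 6 skeletal muscle markers summed to 18169.6 CPM in No244 and to between 14.1 and 642 CPM elsewhere, and mitochondrial genes took 55.2% of the counts of No244. The labelled tissue was checked with osteoblast markers. *Sp7*, the osteoblast transcription factor, was between 192 and 333 CPM in No244, No316, No368 and No203, but at 3.96 CPM in No279 and 0.314 in No364. The mineral-binding protein gene *Ibsp* was at 3.27 and 2.25 CPM and the osteocyte gene *Dmp1* at 0.363 and 0.523 CPM in these same tumors No279 and No364. The defining osteoblast markers were thus near absent from 2 of the 3 *Cd44*-/- tumors, although *Col1a1*, the main bone collagen chain, reached 11990.4 CPM in No279 and 765 CPM in No364. Y-linked genes were counted in No279 and No364 (*Ddx3y*, 571 and 429 counts), so sex and genotype cannot be fully told apart. In the *Cd44*+/+ tumor No244, the Y-linked *Eif2s3y* had 39 counts and *Ddx3y* 0, beside 14775 counts of the X-linked *Xist*.

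The osteoclast effector genes lie on 10 different chromosomes of GRCm38 in the GENCODE M21 annotation, and all are protein coding. The cathepsin K gene *Ctsk* (ENSMUSG00000028111) spans 95499256 to 95509362 of chromosome 3 on the plus strand. The acid phosphatase gene *Acp5* (ENSMUSG00000001348) spans 22126727 to 22135711 of chromosome 9 on the minus strand. The fusion genes *Dcstamp* (ENSMUSG00000022303, chromosome 15, 39745930 to 39760938), *Ocstamp* (ENSMUSG00000027670, chromosome 2, 165393760 to 165400405) and *Atp6v0d2* (ENSMUSG00000028238, chromosome 4, 19876841 to 19922605) are unlinked. The acid secretion genes are *Tcirg1* (ENSMUSG00000001750, chromosome 19, 3896050 to 3907133) and *Clcn7* (ENSMUSG00000036636, chromosome 17, 25133391 to 25162104). The receptors are *Oscar* (ENSMUSG00000054594, chromosome 7, 3609813 to 3616157) and *Calcr* (ENSMUSG00000023964, chromosome 6, 3685680 to 3764714), and the transcription factor is *Nfatc1* (ENSMUSG00000033016). The annotation places 1 gene on the opposite strand across *Acp5* and 1 across *Nfatc1*, and 2 microRNA genes inside *Calcr*. The counting is not stated to use strand, so reads of these neighbors cannot be told apart from those of the named genes.

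Promoters are shown for *Acp5*, *Ctsk* and *Oscar*, which varied widely between tumors, and for *Clcn7*, which varied least. RefSeq start sites on GRCm38.p6 were found for 6 of the 10 genes, 12 sites in all, with *Nfatc1*, *Dcstamp*, *Ocstamp* and *Atp6v0d2* not among them. The 250 bases before 1 start site of each are printed 5′ to 3′ on the strand of the gene. Capitals mark matches on either strand to TGGAAA (a core bound by NFAT factors), GAGGAAG (a core bound by PU.1), CACGTG and CATGTG (cores bound by MITF and TFE factors). *Acp5* and *Clcn7* have further start sites that are not printed. Those of *Acp5* held none of these cores, and that of *Clcn7* held CATGTG alone.
*Acp5*, chr9:22130599-22130848, minus strand: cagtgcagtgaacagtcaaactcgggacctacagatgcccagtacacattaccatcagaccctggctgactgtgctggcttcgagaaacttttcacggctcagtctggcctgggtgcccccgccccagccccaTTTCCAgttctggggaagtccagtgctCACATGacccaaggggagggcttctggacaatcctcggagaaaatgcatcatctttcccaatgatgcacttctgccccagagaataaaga
*Ctsk*, chr3:95498960-95499209, plus strand: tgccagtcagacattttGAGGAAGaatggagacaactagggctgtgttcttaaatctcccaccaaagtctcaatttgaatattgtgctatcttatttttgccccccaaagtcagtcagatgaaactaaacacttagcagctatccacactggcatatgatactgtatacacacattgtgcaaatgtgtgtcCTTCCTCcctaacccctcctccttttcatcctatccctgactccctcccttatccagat
*Oscar*, chr7:3616158-3616407, minus strand: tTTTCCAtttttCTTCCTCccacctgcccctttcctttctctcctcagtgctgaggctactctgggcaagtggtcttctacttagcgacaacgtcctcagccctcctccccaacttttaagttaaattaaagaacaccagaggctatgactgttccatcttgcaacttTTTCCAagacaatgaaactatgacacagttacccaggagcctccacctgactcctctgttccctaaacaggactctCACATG
*Clcn7*, chr17:25133141-25133390, plus strand: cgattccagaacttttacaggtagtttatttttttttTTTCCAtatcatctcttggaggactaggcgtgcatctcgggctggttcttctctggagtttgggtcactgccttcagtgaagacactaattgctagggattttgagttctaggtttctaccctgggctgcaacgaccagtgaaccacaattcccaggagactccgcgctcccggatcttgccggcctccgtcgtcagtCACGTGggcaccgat
In windows of 250 bases before and 50 bases after a start site, TGGAAA was found for *Acp5*, *Ctsk*, *Oscar* and *Clcn7*, at 4 of the 12 sites, and at 21.4% of all 32851 start sites of the table. GAGGAAG was found for *Ctsk*, *Oscar* and *Tcirg1*, at 3 of the 12 sites against 13.6% of all. CATGTG stood at 3 of the 12 sites against 14.2% of all, and CACGTG at 1, that of *Clcn7*, against 7.15% of all. The study links the intracellular part of CD44 to the elements TRE and CIRE. It searched for them in longer stretches before the start sites of *Abcb1a* and *Abcb1b*, so its search and the one here are unlike. The TRE sequence TGAGTCA was found at 0 of the 12 sites and at 5.20% of all. The CIRE sequence CCTGCG was found at 2 of the 12 sites, 1 each of *Acp5* and *Calcr*, and at 17.3% of all. These are matches of letters, and binding was not measured.

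The osteoclast effector genes were high in 3 tumors and low in the other 3, and the line between them did not follow the genotype. For 10 of the 10 genes, the *Cd44*+/+ tumor No244 and the *Cd44*-/- tumors No203 and No279 lay above No316, No368 and No364. This order of tumors, which was noticed in the values and then counted, was found for 6.85% of all 16839 genes tested. It held for 10 of the genes with mitochondrial genes left out of the scaling and for 8 with library size alone, where *Nfatc1* and *Clcn7* departed from it. Together the 10 genes summed to 10302 CPM in No244, 10277 in No203 and 6630.3 in No279, and to 947, 940.1 and 759 CPM in No316, No368 and No364. With library size alone the sums were 5813, 11429 and 8180 CPM in No244, No203 and No279, and 1244, 1239 and 538 CPM in No316, No368 and No364. The rank of No244 among the 3 high tumors thus depends on the scaling, while its sum stayed above those of the low tumors. They made up 1.14% of all counts in No203 (95% Wilson interval 1.14% to 1.15%, counting error only) and 0.0538% in No364 (0.0530% to 0.0547%). In tumor tissue, fewer osteoclasts and less RNA of these genes per osteoclast cannot be told apart.

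**Figure D1:**
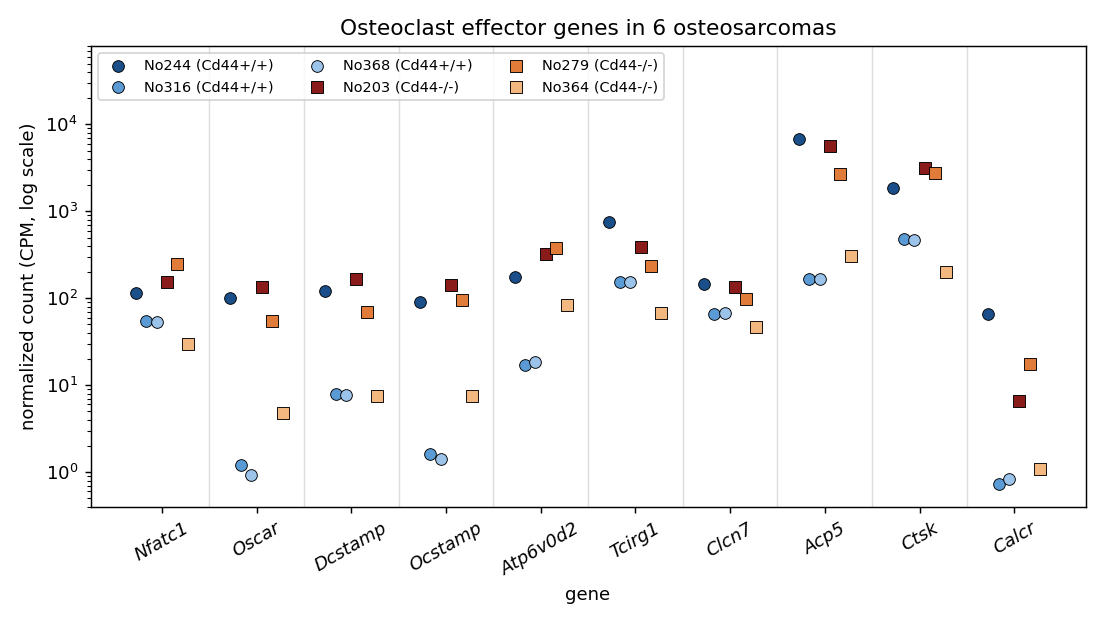
Normalized counts (CPM, log scale) of the 10 osteoclast effector genes in each tumor, with circles for *Cd44*+/+ and squares for *Cd44*-/- tumors and 1 point per library. For each gene the points of No244, No203 and No279 lie above those of No316, No368 and No364, for *Oscar* from 55.4 to 133 CPM against 0.924 to 4.81 CPM.

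*Acp5* and *Ctsk* encode enzymes that osteoclasts secrete, and these were the most abundant of the 10 genes. *Acp5*, the tartrate-resistant acid phosphatase by which osteoclasts are stained, was at 6876, 166 and 168 CPM in tumors No244, No316 and No368, against 5702, 2701 and 309.5 CPM in No203, No279 and No364. Its mean was 3522 ± 4744 CPM for *Cd44*+/+ (SD, n = 2) against 2904 ± 2702 CPM for *Cd44*-/- (SD, n = 3), so the genotypes overlapped and the spread within each was as large as its mean or nearly so. *Ctsk*, the protease that cleaves bone collagen, was at 1862, 476 and 468 CPM in No244, No316 and No368, against 3124, 2730.0 and 202 CPM in No203, No279 and No364. The highest tumor exceeded the lowest 41.3 times for *Acp5* and 15.4 times for *Ctsk*. Per library, the ratio of *Acp5* to *Ctsk* counts was 3.69 in No244, 1.82 in No203, 0.989 in No279 and 1.53 in No364, and 0.350 and 0.359 in No316 and No368, so *Acp5* was the less frequent of the pair in No279, No316 and No368.

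Cell fusion depends on *Dcstamp* and *Ocstamp*, membrane proteins without which precursors stay single, and is helped by *Atp6v0d2*, a subunit of the proton ATPase. *Dcstamp* was at 121, 7.92 and 7.68 CPM in tumors No244, No316 and No368, against 166, 69.2 and 7.59 CPM in No203, No279 and No364. *Ocstamp* was at 90.7, 1.63 and 1.43 CPM and at 142, 96.4 and 7.54 CPM in the same order. In the high tumors the counts of both genes were close, with a *Dcstamp* to *Ocstamp* ratio from 0.717 to 1.33. In the low tumor No364 the ratio was 1.01, on 145 and 144 counts. Only the pair No316 and No368 departed, at 4.85 and 5.38, on 47 and 34 counts of *Ocstamp*. For *Atp6v0d2* the *Cd44*+/+ tumors held 174, 17.3 and 18.5 CPM, and the *Cd44*-/- tumors 324, 379 and 82.8 CPM. Among the low tumors, No364 held more *Atp6v0d2* than No316 and No368, whereas *Dcstamp* was at much the same level in the 3.

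Acid secretion needs *Tcirg1*, the a3 subunit of the osteoclast proton ATPase, and *Clcn7*, the chloride and proton exchanger that works beside it. Both are also used by lysosomes of other cells. *Tcirg1* was at 753, 155 and 153 CPM in tumors No244, No316 and No368, against 391, 237 and 66.9 CPM in No203, No279 and No364. *Clcn7* was at 145, 66.5 and 67.4 CPM and at 134, 98.3 and 46.9 CPM in the same order. The range between the highest and the lowest tumor was 11.2 times for *Tcirg1* and 3.08 times for *Clcn7*, the smallest of the 10 genes. *Atp6v0d2* and *Tcirg1* encode subunits of the same pump, and their count ratio was not constant. It was 0.230, 0.112 and 0.121 in No244, No316 and No368, against 0.829, 1.60 and 1.24 in No203, No279 and No364. The ratio was thus higher in every *Cd44*-/- tumor than in any *Cd44*+/+ tumor, a difference seen in the values and not tested. The ratio of *Dcstamp* to *Ocstamp* also split the genotypes, lower in every *Cd44*-/- tumor. Among single genes tested, 19.1% split the genotypes in either direction, and No316 and No368 are in effect a single sample. How often ratios of 2 genes do so was not counted.

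Differentiation is governed by *Nfatc1*, the transcription factor that RANK ligand switches on, and aided by *Oscar*, a collagen-binding receptor that costimulates it. *Nfatc1* was at 115, 54.8 and 53.9 CPM in tumors No244, No316 and No368, against 153, 247 and 29.7 CPM in No203, No279 and No364, highest in the *Cd44*-/- tumor No279. *Oscar* was at 100.2, 1.22 and 0.924 CPM and at 133, 55.4 and 4.81 CPM in the same order. *Oscar* spanned 144 times between tumors, the widest range of the 10 genes, and *Nfatc1* 8.31 times, so in No316 and No368 the factor was counted 1577 and 1285 times and the receptor 35 and 22 times. *Nfatc1* is also made by other cells, such as endothelium, whose 5 markers summed to between 72.8 and 339 CPM, highest in No279 and lowest in No364. Their part in the *Nfatc1* level was not tested.

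*Calcr*, the receptor through which calcitonin halts osteoclasts, was at 66.6, 0.730 and 0.840 CPM in tumors No244, No316 and No368, against 6.66, 17.5 and 1.10 CPM in No203, No279 and No364. It was the only one of the 10 genes for which No203 was the lowest of the 3 high tumors, while No244 stood far above the rest. No244 was also the tumor with 18169.6 CPM of skeletal muscle markers, and muscle satellite cells are known to make *Calcr*, a part in its level that was not tested.

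A range of at least 10 times between the highest and the lowest tumor was found for 8 of the 10 genes and for 28.0% of all genes tested. Levels of different genes were compared after division by exon length. On this scale, CPM per kb, the means over 5 samples were 1552 for *Acp5* and 1110 for *Ctsk*, far above 72.0 for *Atp6v0d2*, 69.6 for *Tcirg1*, 31.9 for *Oscar*, 27.9 for *Dcstamp*, 18.6 for *Clcn7*, 18.5 for *Ocstamp*, 16.03 for *Nfatc1* and 4.74 for *Calcr*. The neighbors *Atp6v0d2* and *Tcirg1*, or *Clcn7*, *Ocstamp* and *Nfatc1*, did not differ beyond their spread, and their order changed from tumor to tumor. *Acp5* led in No244, No203 and No364 and *Ctsk* in No279, No316 and No368.

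The comparison of genotypes asks whether loss of CD44 goes with another level of these genes. In the quasi-likelihood fit of edgeR, with p-values adjusted by Benjamini-Hochberg over 16839 genes, 0 of the 10 genes were called at an adjusted p under 0.05, and 0.0% of all genes were. At an unadjusted p under 0.05 there were 0 of the 10 genes and 10.7% of all genes, 6.44% higher and 4.31% lower in *Cd44*-/-. DESeq2 with its defaults called 0 of the 10 and 2.33% of all genes to which it gave an adjusted p. The *Cd44*-/- libraries lay all above or all below the *Cd44*+/+ libraries for 0 of the 10 genes and for 19.1% of all genes, 9.49% above and 9.57% below. The median log2 fold change (*Cd44*-/- over *Cd44*+/+) of the 10 genes was 0.88, beside 0.11 over all genes tested, with values above 0 for 8 of the 10, *Clcn7* at 0.0047 among them, and for 55.1% of all. With No316 and No368 summed to 1 library, this median was 0.36 and 6 of the 10 values were above 0.

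The fusion gene *Atp6v0d2* had the largest log2 fold change of the 10, 1.91 (standard error 1.08, adjusted p = 0.527 by edgeR). *Calcr* had the lowest, -1.43 (standard error 1.78, adjusted p = 0.770 by edgeR), and *Acp5* stood at 0.27 (standard error 1.70, adjusted p = 0.960 by edgeR). For *Acp5* this sign is opposite to that of the means above, in which No316 and No368 count as 1 sample, and with the pair summed the value was -0.26. With errors of this size, differences of several fold between genotypes in either direction were not detectable. The differences turned on single tumors. Without the *Cd44*+/+ tumor No244, the log2 fold changes were 4.12 for *Acp5*, 5.90 for *Oscar* and 3.41 for *Calcr*. The *Cd44*+/+ arm is then the pair No316 and No368 alone, in effect 1 sample, so these are values with no test. Without the *Cd44*-/- tumor No203, those of *Acp5*, *Oscar* and *Dcstamp* were -0.69, -0.19 and -0.26. Without No364, the tumor with the hepatocyte markers, the median of the 10 genes was 1.41 and 0 of them were called.

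**Figure D2:**
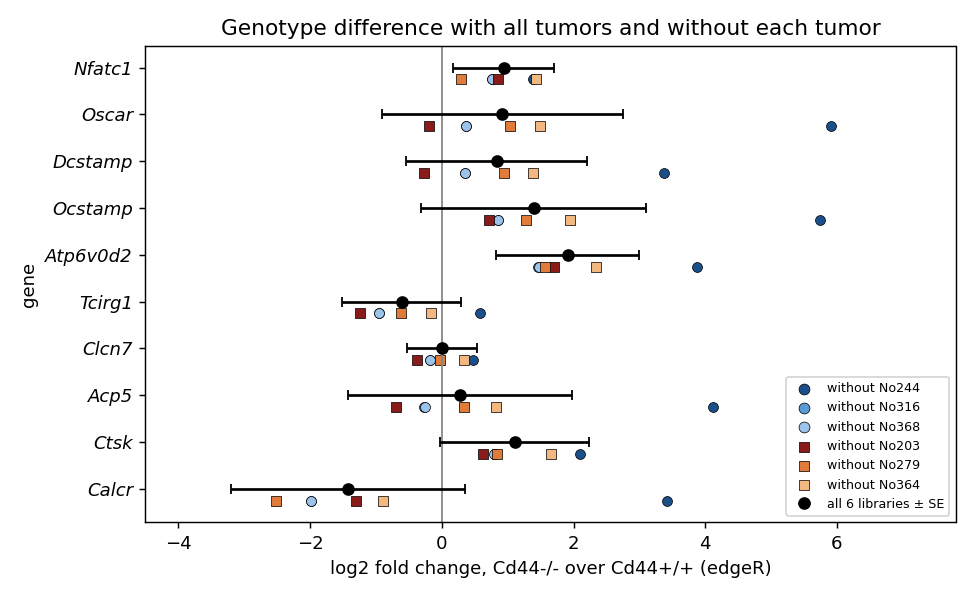
Log2 fold change of each osteoclast effector gene, *Cd44*-/- over *Cd44*+/+, with all 6 libraries (black, with the standard error) and with each library left out (colored points). The value of *Acp5* moves from 0.27 with all libraries to 4.12 without No244 and to -0.69 without No203.

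Among themselves, the 10 genes followed one pattern over the tumors. The Pearson correlation of log2 CPM over the 6 libraries, which hold 5 independent samples, had a median of 0.85 over the 45 pairs of genes and ran from 0.51 (*Atp6v0d2* and *Tcirg1*) to 0.99 (*Oscar* and *Ocstamp*). These values share libraries and scaling and are given as a description. Of 13226 other protein-coding genes with a mean of at least 1 CPM, the 10 most like the mean pattern of the osteoclast effector genes were *Clec12a*, *Rac2*, *Pip5k1b*, *Plekhf1*, *Cpz*, *Mst1r*, *Map2k3*, *Galnt6*, *Padi2* and *Uhrf2*, with correlations from 0.989 to 0.999 over the 6 libraries. *Clec12a*, a lectin receptor of myeloid cells, was at 161, 14.0 and 15.1 CPM in tumors No244, No316 and No368, against 132, 109 and 18.2 CPM in No203, No279 and No364. *Rac2*, the blood cell GTPase, was at 171, 17.8 and 17.5 CPM and at 175, 108 and 22.1 CPM in the same order.

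The wider osteoclast pathway was described with 57 further genes, all of which passed the low-count filter. Of these, 0 were called by edgeR, and 1, *Tnfrsf11b*, by DESeq2 with its defaults. The median log2 fold change was 0.27, with 38 values above 0 and 19 below. The order of tumors of the effector genes, with No244, No203 and No279 on top, was found for 28 of the 57 genes (49.1%), against 6.85% of all genes. These 28 included 9 of the 17 genes for acid secretion and proteases, 5 of the 8 receptors and adaptors, 3 of the 9 transcription factors and 1 of the 4 ligands.

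Ligands came first in the pathway. *Tnfsf11*, RANK ligand, was at 15.5, 7.86 and 7.60 CPM in tumors No244, No316 and No368, against 21.4, 74.7 and 4.92 CPM in No203, No279 and No364. *Tnfrsf11b*, the decoy receptor osteoprotegerin that neutralizes RANK ligand, was at 1.68, 60.9 and 62.2 CPM and at 4.48, 0.396 and 1.41 CPM in the same order. The decoy was therefore high in the duplicate-like pair No316 and No368 and low in No244 and all 3 *Cd44*-/- tumors. *Tnfrsf11b* had a log2 fold change of -4.31 (standard error 1.44, adjusted p = 0.452 by edgeR, 0.0350 by DESeq2), and with No316 and No368 as 1 sample the high level rests on 1 of 2 *Cd44*+/+ samples. The count ratio of *Tnfsf11* to *Tnfrsf11b* was 0.129 and 0.122 in No316 and No368, and 9.20 in No244, 4.78 in No203, 188.5 in No279 and 3.48 in No364. In No364 the ratio was above 1 while the osteoclast effector genes were low.

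Of the 8 receptors and adaptors, 5 had the order of tumors of the effector genes, *Csf1r* and the adaptor gene *Tyrobp* among them. The receptor RANK, *Tnfrsf11a*, was at 37.5, 15.95 and 14.6 CPM in tumors No244, No316 and No368, against 39.1, 50.2 and 6.54 CPM in No203, No279 and No364. The fusion-promoting lectin *Siglec15* (4.37, 0.104 and 0.126 CPM, then 3.45, 9.18 and 0.628) and *Itgb3*, the integrin subunit that seals osteoclasts to bone (119, 24.6 and 23.5 CPM, then 146, 71.2 and 8.53), were high in the same 3 tumors. *Siglec15* had 3 counts in each of No316 and No368, the lowest level taken as detectable. The M-CSF receptor *Csf1r*, which macrophages and osteoclasts share, varied less, with 278, 193 and 198 CPM and 252, 360.0 and 98.0 CPM. The adaptor-linked receptor *Trem2* was highest in No316 and No368, at 42.5 and 43.4 CPM against 5.63 to 12.3 CPM in the other tumors.

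Of the 17 further genes for acid secretion and proteases, 8 did not have the order of tumors of the effector genes, *Car2* and *Ctsb* among them. *Mmp9*, a gelatinase that osteoclasts make in quantity, was at 3869.5, 115 and 118 CPM in tumors No244, No316 and No368, against 2095, 3628 and 249.6 CPM in No203, No279 and No364. *Car2*, the carbonic anhydrase that supplies protons for the acid, was at 35.0, 14.7 and 14.4 CPM and at 173, 135 and 37.8 CPM, above every *Cd44*+/+ tumor in each *Cd44*-/- tumor. The lowest of these, No364, was close to the highest *Cd44*+/+ tumor, No244. Over the pathway list, 3 of the 57 genes lay above in all *Cd44*-/- tumors and 2 below, against 9.49% and 9.57% of all genes. *Car2* had a log2 fold change of 2.43 (standard error 0.68, adjusted p = 0.452 by edgeR, 0.0593 by DESeq2). The pump subunit *Atp6v1b2* was at 333, 54.8 and 53.5 CPM and at 572, 583 and 99.2 CPM, an order close to that of *Atp6v0d2*. *Ctsb*, a cathepsin that most cells carry, stayed between 701 and 1108 CPM in the 6 tumors. The interferon factor *Irf8*, a known brake on osteoclast formation, was at 24.8, 35.4 and 35.7 CPM in *Cd44*+/+ and at 8.88, 14.2 and 14.0 CPM in *Cd44*-/- tumors, with a log2 fold change of -1.37 (standard error 0.37, adjusted p = 0.452 by edgeR, 0.0653 by DESeq2). The largest log2 fold change of the 57 genes, 5.68 for *Dpp4*, came with 101 CPM in No364 and at most 3.93 CPM in the other tumors, and was 1.81 without No364.

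**Figure D3:**
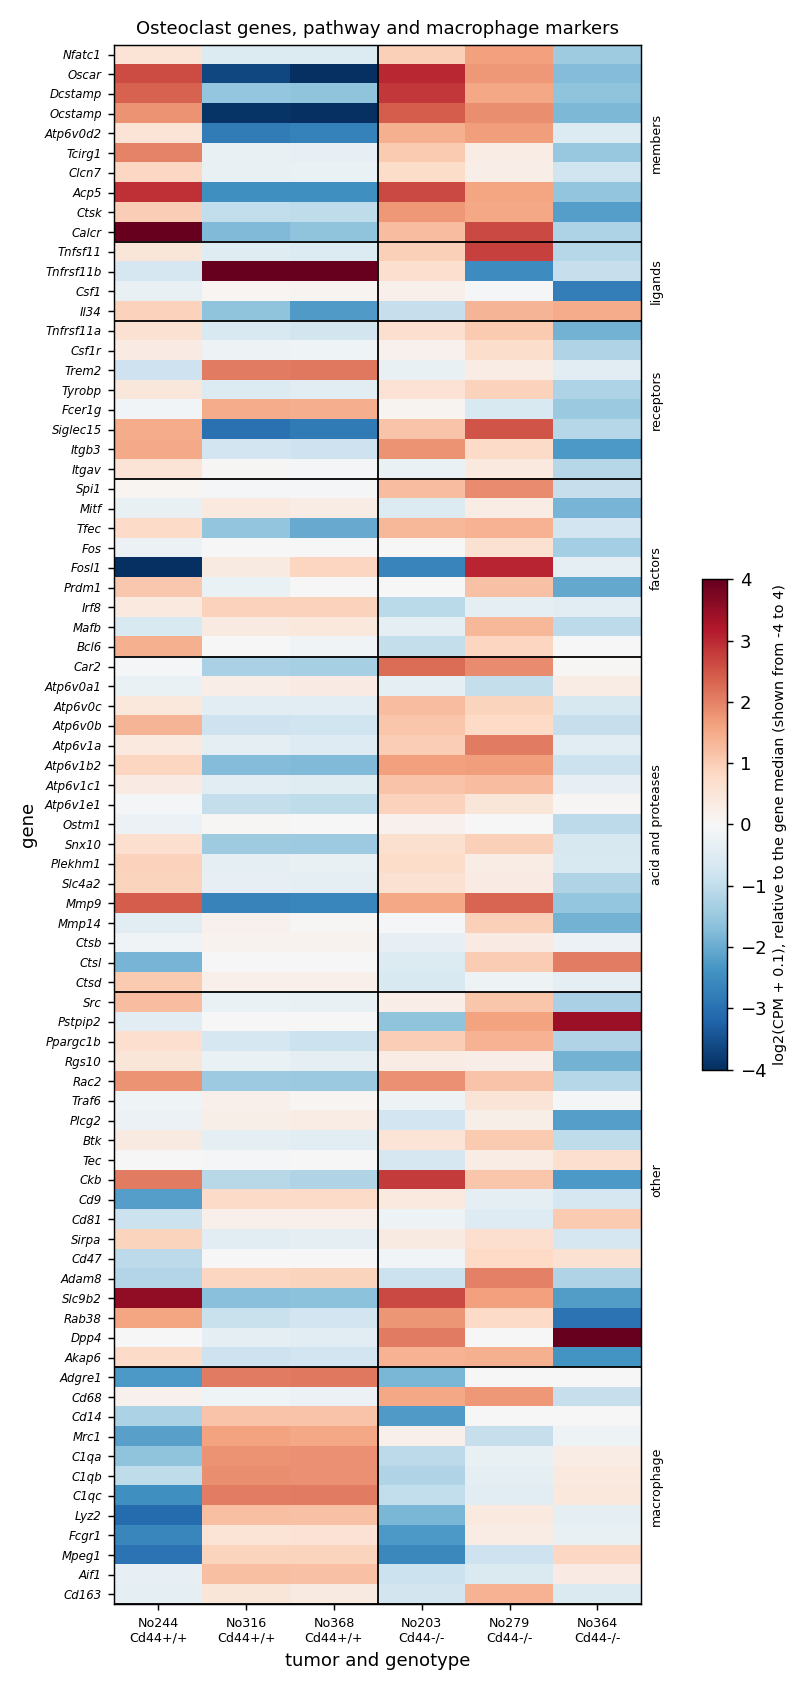
Log2(CPM + 0.1) of the 10 osteoclast effector genes, the 57 pathway genes and the 12 macrophage markers in each tumor, relative to the gene's median over the libraries (red higher, blue lower, shown from -4 to 4). The effector genes are red in No244, No203 and No279, and most macrophage markers are red in No316 and No368.

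Macrophages are the nearest relatives of osteoclasts, and their markers had another order of tumors. The 12 macrophage markers, none of which was at 0 in any tumor, summed to 294 CPM in No244, 598 in No203, 1340.3 in No279 and 1102 in No364, and to 2626 and 2620.3 CPM in No316 and No368. For 10 of the 12, No316 and No368 were the highest libraries, an order found for 13.3% of all genes tested and for 0 of the 10 osteoclast effector genes. The complement gene *C1qa* was at 23.2, 245 and 253 CPM in tumors No244, No316 and No368, against 34.3, 57.9 and 86.0 CPM in No203, No279 and No364. *Adgre1*, which encodes the macrophage antigen F4/80, was at 2.60, 55.6 and 56.2 CPM and at 3.57, 13.3 and 12.8 CPM. *Cd68*, a lysosomal protein that osteoclasts hold too, was the 1 macrophage marker with the order of the effector genes, at 105, 81.2 and 78.9 CPM and at 269, 311 and 48.7 CPM. Within a library, *Acp5* had 296 counts for each count of *C1qa* in No244, 166 in No203, 46.6 in No279 and 3.60 in No364, and 0.679 and 0.666 in No316 and No368. This ratio does not depend on the scaling of the libraries.

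**Figure D4:**
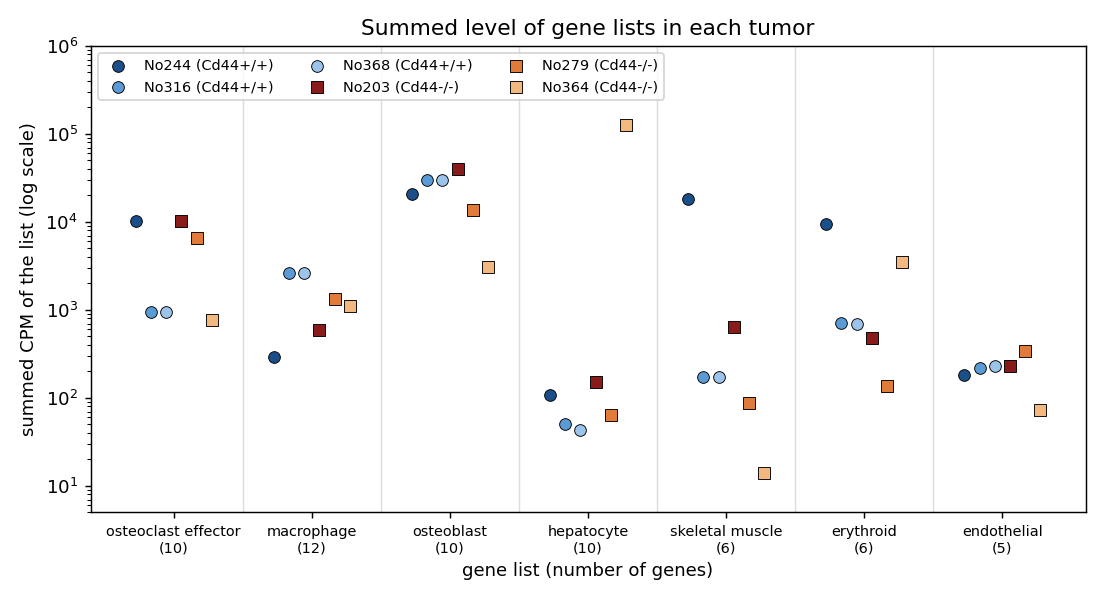
Summed CPM (log scale) of the osteoclast effector genes and of marker lists of other cell types in each tumor, with circles for *Cd44*+/+ and squares for *Cd44*-/-. The osteoclast effector genes reach 10302 CPM in No244 and 759 CPM in No364, the macrophage markers are highest in No316 and No368 (2626 and 2620.3 CPM), and hepatocyte markers reach 126819 CPM in No364.

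The osteoblast markers did not share the order of the effector genes, which was found for 0 of the 10. No203 and No279 both held high osteoclast effector genes, with *Ibsp* at 4820.2 CPM in No203 and 3.27 CPM in No279. Granulocyte markers, a sign of marrow, summed to between 31.6 and 77.6 CPM, erythroid markers to between 137 and 9592 CPM, and B and T cell markers to at most 9.11 CPM in any tumor. Up to 3 of the 8 granulocyte markers were at 0 in a tumor. The part of other tissue in the levels of the osteoclast effector genes was not tested.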

How the data were processed

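The authors isolated total RNA with the RNeasy kit, made TruSeq stranded mRNA libraries, sequenced them from a single end, aligned the reads to GRCm38 with HISAT2 2.0.2 and counted them per Ensembl gene with featureCounts of Subread 2.0.0, as the study's methods and the submitters' processing notes state. They deposited raw counts for 39179 genes and 6 tumors, without normalization. Strand setting and treatment of reads with several matches are not given in the sources used here. Every column was used (0 left out).

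Symbols were matched for 37607 identifiers, and exon lengths come from GENCODE M21. Counts were scaled and tested with edgeR 4.0.16 in R 4.3.3 (TMM, filterByExpr defaults, quasi-likelihood test, Benjamini-Hochberg adjustment, genotype as the single factor, 6 libraries). Nothing in the labels says more of the replicates than the mouse numbers, so p-values measure the spread between these libraries. With No316 and No368 entered as separate libraries, that spread is understated for *Cd44*+/+. DESeq2 1.42.0 and limma 3.58.1 (voom) were alternatives, beside other scalings and filters, a hepatocyte covariate, No316 and No368 summed, and each library left out. Fits were run on simulated data with less spread than these tumors and without a duplicate-like pair, so that run says little of the present data.

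The 10 genes and all lists were chosen with earlier results of these data known. Named are the 10 genes, *Cd44*, 8 preset pathway genes, the list genes with the highest mean CPM or the lowest or highest log2 fold change, some list genes chosen after their values were seen (*Atp6v1b2*, *Irf8*, *Trem2*, *Ckb*, *Slc9b2* and single markers), and the 10 most correlated genes. Log2 CPM used a prior count of 2. Wilson intervals cover counting error only.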

Additional observations from a re-analysis of the deposited data

How the results depend on the processing

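The number of osteoclast effector genes called stayed at 0 under 16 alternative settings and 2 more chosen after seeing the data (No279 and No364 left out, and No316 and No368 summed with No364 left out). Over all genes and over the 57 pathway genes it was 0 under each edgeR and limma-voom setting, between 0 and 0 without each library in turn, where the fit without No244 leaves in effect 1 *Cd44*+/+ sample and says nothing of stability. DESeq2 called 419 genes with its defaults, 1 of the pathway genes among them, and 1195 genes without its filter on Cook's distance, 4 of the pathway genes among them. *Cd44* was called by DESeq2 only. The median correlation between the 10 genes was 0.91 without No364 and 0.85 with No316 and No368 averaged. With library size alone, the *Cd44*+/+ mean of *Acp5* was 2049.7 CPM in place of 3522, below the *Cd44*-/- mean (3298 CPM) where it had been above it, and the *Cd44*+/+ means of *Oscar* and *Ocstamp* were 29.0 and 26.6 CPM in place of 50.7 and 46.1.

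The sign of single log2 fold changes was unstable. *Clcn7*, at 0.0047 with all libraries, was -0.024 with the size factors of DESeq2, -0.010 without mitochondrial genes, -0.0076 in both DESeq2 fits, -0.18 with No316 and No368 summed and -0.039 with limma-voom. *Acp5* was -0.26 with that pair summed, *Calcr* 1.09 with limma-voom, and *Tcirg1* 0.16 with No279 and No364 left out. Without each library in turn, the values ran from -0.38 to 0.47 for *Clcn7*, -0.69 to 4.12 for *Acp5*, -2.52 to 3.41 for *Calcr*, -1.24 to 0.59 for *Tcirg1*, -0.19 to 5.90 for *Oscar* and -0.26 to 3.37 for *Dcstamp*, and the median of the 10 genes ran from -0.23 (without No203) to 3.39 (without No244). The median of all genes tested was 0.11. Of all genes with an unadjusted p under 0.05, 59.9% were higher in *Cd44*-/- tumors, 68.3% with library size alone, 42.6% with No316 and No368 summed and 38.4% with limma-voom. No paired analysis was possible because the labels give the genotypes no shared replicate numbers. Low counts limit *Oscar*, *Ocstamp* and *Calcr*, with 20 to 47 counts in No316 and No368. *Calcr* also had 21 counts in No364. The pathway gene *Siglec15* had 3 counts in each of No316 and No368 and 12 in No364.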

Other observations

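Of the pathway genes already counted, *Ckb*, the brain-type creatine kinase that buffers ATP, was at 811, 88.4 and 83.8 CPM in tumors No244, No316 and No368, against 1345, 418 and 39.3 CPM in No203, No279 and No364. The sodium and proton exchanger gene *Slc9b2* was at 411, 11.1 and 11.3 CPM and at 218, 109 and 7.38 CPM in the same order. Both had the order of tumors of the osteoclast effector genes, and neither was called between genotypes (adjusted p = 0.820 and 0.942 by edgeR). *Cpz*, a carboxypeptidase of the extracellular matrix, was at 49.8, 0.660 and 0.588 CPM and at 34.1, 14.6 and 1.26 CPM, and *Mst1r*, a receptor tyrosine kinase, at 116, 3.09 and 4.996 CPM and at 88.4, 98.4 and 7.90 CPM.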
